A study of Mus musculus with 10 samples.

Results

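Keratins of the epidermis between hair follicles and of stressed epidermis, 10 genes in all, were followed in treated mouse back skin: the basal keratins Krt5 and Krt14, the suprabasal keratins Krt1, Krt10, Krt2 and Krt77, and the keratins of hyperproliferation and stress Krt6a, Krt6b, Krt16 and Krt17. They were chosen by gene symbol from the 24452 named genes of the count table, and all 10 members passed the filter on low counts that kept 15543 genes for testing. RNA came from full-thickness biopsies of treated skin without tumors, 1 library per mouse, from 5 WT and 5 Zfp36ΔARE mice of the C57BL/6 strain, with littermates as controls. In Zfp36ΔARE mice an instability element was deleted from the 3′-UTR of the endogenous Zfp36 gene, which encodes the RNA-binding protein tristetraprolin (TTP), so the allele acts in every cell of the animal and not in keratinocytes alone. Both groups were 7 weeks old at the start and received 400 nmol of the mutagen 7,12-dimethylbenz[a]anthracene (DMBA) once on shaved back skin, followed by 10 nmol of the phorbol ester TPA 2 times a week for 20 weeks. No library from untreated skin was analysed here, so the response of these keratins to TPA itself was not measured.

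Keratins form filaments only as pairs of an acidic type I and a basic type II protein. Dividing cells of the basal layer make the pair Krt5 and Krt14, and cells that leave it switch to Krt1 and Krt10, some of them also making Krt2 or Krt77. Wounding, phorbol esters and hyperproliferation are known to induce Krt6a, Krt6b, Krt16 and Krt17, which resting skin makes in parts of the hair follicle such as the companion layer.

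TTP binds AU-rich elements in the 3′ ends of mRNAs and promotes their decay. Its preferred core is the heptamer TATTTAT, which holds the pentamer ATTTA. In the GENCODE annotation of GRCm38 (the build called mm10) none of the 10 keratin 3′-UTRs held the heptamer, which was present in 27.8% of 14295 tested genes with an annotated 3′-UTR. Zfp36 itself had 3 copies. Pentamers occurred in 3 of the keratins, against 66.3% of the tested genes. Neither share was matched for 3′-UTR length, and the 3′-UTRs of Krt16, Krt14 and Krt17 had only 143, 150 and 185 bases. Whether the keratins differ from genes with 3′-UTRs of like length was not tested. Krt77 had 3 of the pentamers in 1125 bases, Krt10 had 1 in 376 bases and Krt6b had 1 in 506 bases. They are shown with 10 bases on each side, 5′ to 3′ on the strand of the gene and with the pentamer in capitals, to show the matches in full, since no other member held one. A match of letters does not show binding.
Krt77 site 1, chr15:101859249-101859273: acccccctgcATTTAgagccgccca
Krt77 site 2, chr15:101859036-101859060: ttgtctcctaATTTAaagtttaatt
Krt77 site 3, chr15:101859024-101859048: ttaaagtttaATTTAcagttctatc
Krt10 site, chr11:99385289-99385313: ttaatttctcATTTActaataaatt
Krt6b site, chr15:101676023-101676047: aataaagcagATTTAtaaaaagtaa

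The type II members lie together on chromosome 15 (Krt6b from 101676023 to 101680287, Krt6a from 101689910 to 101694307, Krt5 from 101707070 to 101712898, Krt2 from 101810689 to 101818169, Krt1 from 101845426 to 101850794 and Krt77 from 101858731 to 101869705). The type I members lie on chromosome 11 (Krt10 from 99385254 to 99389364, Krt14 from 100203162 to 100207548, Krt16 from 100246091 to 100248902 and Krt17 from 100256217 to 100261029). All 10 are on the minus strand, and the main transcript has 9 exons in each type II gene and 8 in each type I gene. The length of Krt77 in the count table, 1719 bases, equals its coding part, so fragments of its long 3′-UTR were outside the gene model that was counted.

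Some members are near copies of each other, which bears on how far their counts can be told apart. The coding parts of Krt6a and Krt6b were identical at 97.8% of 1662 aligned bases, with a longest identical run of 280 bases. Of all windows of 50 bases in the main transcript, 49.5% in Krt6a and 50.1% in Krt6b also occurred in a transcript of another gene, mostly in each other. The share was 37.6% in Krt16, where most of these windows lay in Gm11597, a locus without a row in the count table, and 188 of the 570 shared windows lay in Krt14. It was 14.4% in Krt14, 8.52% in Krt5, 3.99% in Krt17 and 0% in Krt1, Krt10, Krt2 and Krt77. The setting for fragments that match several genes is not given in the sources used here, so values of Krt6a, Krt6b and Krt16 are uncertain to that extent. The stretch of 60 bases in which the coding parts of Krt6a and Krt6b differed most, bases 817 to 876 in both, is printed to show what separates their fragments. Capitals mark the 10 differing positions.
Krt6a: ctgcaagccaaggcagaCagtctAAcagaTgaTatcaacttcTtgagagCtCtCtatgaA
Krt6b: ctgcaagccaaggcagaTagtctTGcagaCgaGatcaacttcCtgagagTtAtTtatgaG

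Depth ranged from 19595024 to 36419553 counts per library and overlapped between the groups. The targeted gene followed the labels: Zfp36 had 2152 ± 277 normalized counts in WT and 5427 ± 766 in Zfp36ΔARE skin (SD, n = 5 each). By edgeR the log2 difference was 1.33 with a standard error of 0.12 (adjusted p = 0.0019). A normalized count here is a count scaled by edgeR's TMM factors to the mean library. The libraries also differed in make-up. Of 13 hair shaft keratins, 4 were called higher in Zfp36ΔARE skin by edgeR, with 12 at an unadjusted p below 0.05, 12 by DESeq2 and 5 by limma-voom. Their summed level was 89.4 to 3970 CPM in WT and 6293 to 17781 CPM in Zfp36ΔARE libraries, and WT replicates 3 and 1 were the lowest. Of the 9 inner root sheath genes edgeR called 0, with 7 at an unadjusted p below 0.05, DESeq2 called 3 and limma-voom 1 (summed 1422 to 26224 and 27189 to 48449 CPM). Called lower were 10 of 10 macrophage markers (635 to 1317 against 311 to 492 CPM), 9 of 10 skeletal muscle markers (7827 to 38495 against 4537 to 10093 CPM), 5 of 9 adipocyte, 4 of 7 endothelial, 2 of 7 sebaceous and 1 of 9 fibroblast markers. Melanocyte markers were called higher in 6 of 7 and follicle keratinocyte genes in 5 of 10. No marker of these lists was at 0 in all libraries. Counts of Y-linked genes were between 3349 and 4262 in Zfp36ΔARE replicates 2 to 5 and did not exceed 1 in the remaining 6 libraries. Sex is therefore uneven between the genotypes, and their effects cannot be told apart. The part of hair, muscle, fat or sex in the values below was not tested.

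The groups overlapped in every one of the 10 keratins, and Krt77 was the only member that changed at an adjusted p below 0.05. With an adjusted p below 0.05 and a fold change over 2, 0 of 10 members were called by edgeR's quasi-likelihood test, where 8.31% of all tested genes were called and 6.64% were called lower in Zfp36ΔARE skin. Without the condition on fold change 1 of 10 passed, Krt77, which was lower. A count of 0 among 10 is near the share over all genes and does not set the keratins apart. Of all tested genes 34.3% passed in either direction and 19.1% passed with a lower level. At an unadjusted p below 0.05 there were 3 members, Krt77, Krt10 and Krt2. DESeq2 called 1 member, Krt2, and limma-voom called 1, Krt77. The values of the 2 groups were set apart without overlap in 0 of 10 members, against 23.1% of all tested genes. The median log2 fold change was -0.02 over the members and 0.01 over all tested genes.

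**Figure D1:**
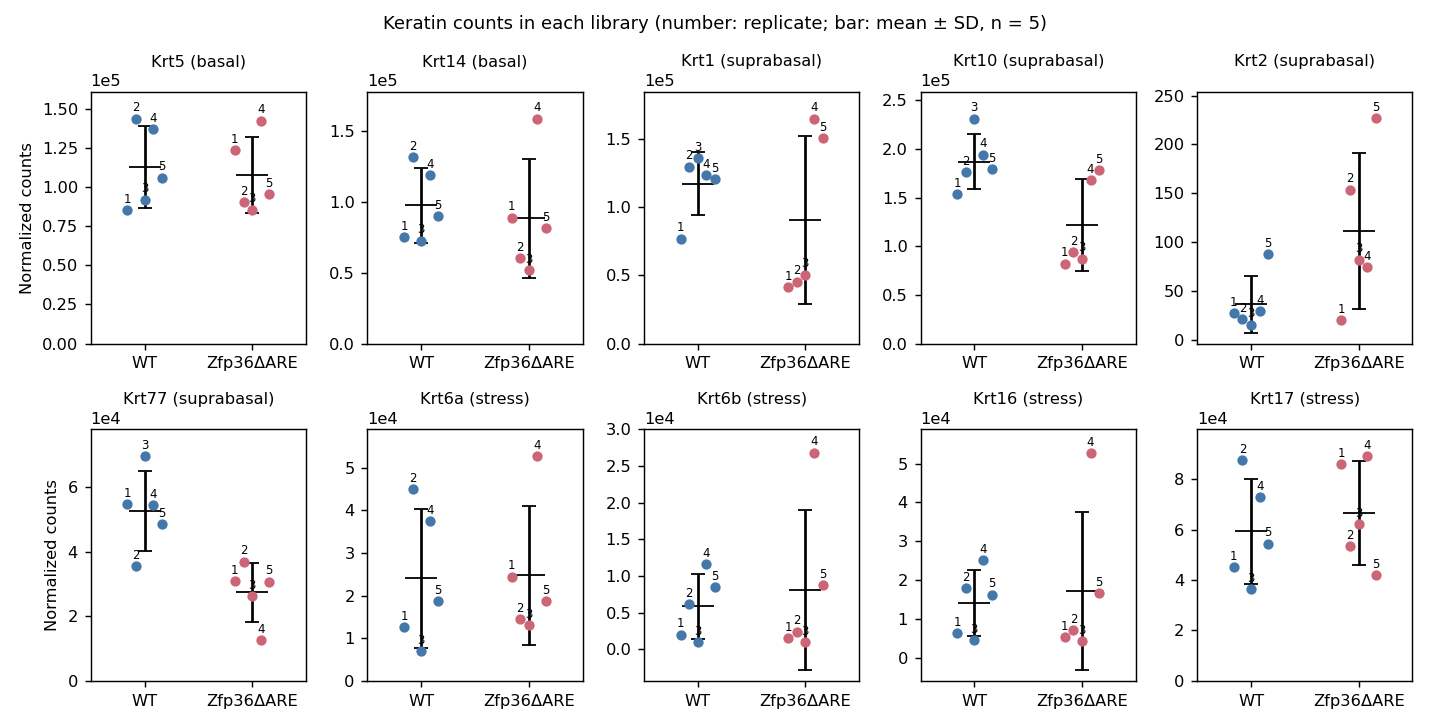
Normalized counts of the 10 keratins in each library, with WT in blue, Zfp36ΔARE in red, the replicate number beside each point and the mean ± SD (n = 5) as a bar. In Krt77 4 of the 5 Zfp36ΔARE libraries lie below all WT libraries, and in Krt6a, Krt6b and Krt16 the highest point is Zfp36ΔARE replicate 4.

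Within the basal pair, Krt5 had the narrowest range over all libraries of any member, 1.68-fold. Krt14 spanned 3.06-fold, more than Krt17 (2.44-fold) and Krt10 (2.82-fold). Krt5, the type II keratin of basal cells, had 85463, 143989, 92113, 137065 and 106158 normalized counts in WT replicates 1 to 5 and 123962, 90674, 85762, 142643 and 95803 in Zfp36ΔARE replicates 1 to 5. Both groups covered nearly the same range, and the log2 fold change was -0.07 (95% interval -0.50 to 0.36, adjusted p = 0.80). Its partner Krt14 had 74914, 131599, 72447, 118524 and 89580 in WT and 88688, 59990, 51856, 158492 and 81476 in Zfp36ΔARE libraries. The highest and the 2 lowest values of Krt14 were all in Zfp36ΔARE skin, so its spread was wider there (coefficient of variation 47.8% against 27.2% in WT) while the means were close (log2 fold change -0.14, 95% interval -0.81 to 0.52, adjusted p = 0.72). Krt15, another type I keratin of basal cells and of follicle stem cells, was at 18043 ± 2780 and 16027 ± 2122 (SD, n = 5 each, adjusted p = 0.30).

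Among suprabasal keratins Krt77 was lower in Zfp36ΔARE skin. Krt77, a type II keratin whose gene neighbours Krt1, had 54743, 35436, 69599, 54317 and 48569 normalized counts in WT replicates 1 to 5. In Zfp36ΔARE replicates 1 to 5 it had 30890, 36933, 26323, 12636 and 30732. All Zfp36ΔARE libraries except replicate 2 were below the lowest WT library, and the overlap rested on that library and WT replicate 2. The means were 52533 ± 12322 and 27503 ± 9128 (SD, n = 5 each), 1.91-fold apart. On the log2 scale the difference was -0.93 (standard error 0.26, 95% interval -1.52 to -0.35, adjusted p = 0.023). WT replicate 3, the library with the lowest hair shaft level, had the highest value. Without WT replicates 1 and 3 the log2 fold change was -0.75 (adjusted p = 0.12), and with the hair shaft score as a term in the fit it was -0.63 (adjusted p = 0.47). That score did not overlap between the genotypes, so fits with it cannot tell hair content from genotype. Krt77 also missed the threshold without WT replicate 3 (-0.81, adjusted p = 0.051) and without Zfp36ΔARE replicate 3 (-0.92, adjusted p = 0.052). Zfp36ΔARE replicate 1, the mouse without Y-linked counts, lay within the range of the other 4.

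Krt10, the type I keratin that marks the switch to differentiation, had 153802, 176454, 231340, 194339 and 179692 normalized counts in WT libraries. The Zfp36ΔARE libraries fell in separate places, with 82172, 93708 and 87390 in replicates 1 to 3 and 168085 and 178061 in replicates 4 and 5. Replicates 1 to 3 were below every WT library and the last 2 were within the WT range. The log2 fold change was -0.62 (standard error 0.24, 95% interval -1.15 to -0.09) with an adjusted p of 0.068, just outside the threshold. It passed in 4 of 22 alternatives, with DESeq2 (adjusted p = 0.028), with scaling by epithelial genes (-0.77, adjusted p = 0.048), without Zfp36ΔARE replicate 4 (-0.76, adjusted p = 0.044) and without Zfp36ΔARE replicate 5 (-0.80, adjusted p = 0.031). It was -0.40 (adjusted p = 0.63) with the hair shaft score as a term, -0.59 (adjusted p = 0.18) without WT replicates 1 and 3, and -0.53 (adjusted p = 0.14) without WT replicate 3.

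The partner Krt1 divided the same libraries more widely. It had 76967, 129807, 135788, 123596 and 120632 normalized counts in WT, 41387, 45381 and 50550 in Zfp36ΔARE replicates 1 to 3, and 164999 and 150694 in replicates 4 and 5. The first 3 were below the lowest WT library and the last 2 above the highest. The mean therefore says little about any one mouse, and the log2 fold change of -0.37 had an interval from -1.29 to 0.54 (adjusted p = 0.50). Within WT, replicate 1 was set apart on the low side.

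Krt2, a late suprabasal keratin that mice make mainly in ear, tail and sole skin, was near the floor of detection. It had 13 to 172 raw counts per library, and 28, 22, 16, 30 and 88 normalized counts in WT against 20, 154, 82, 75 and 227 in Zfp36ΔARE skin. The WT value of 88 in replicate 5 and the Zfp36ΔARE value of 20 in replicate 1 crossed the groups. The log2 fold change was 1.60 (standard error 0.62, 95% interval 0.22 to 2.98, adjusted p = 0.069), and of 22 alternatives 3 passed. DESeq2 gave 1.61 with an adjusted p of 0.021, and the others were the fits without WT replicate 5 (2.20, adjusted p = 0.024) and without Zfp36ΔARE replicate 1 (1.87, adjusted p = 0.032). Limma-voom gave 1.35 (adjusted p = 0.16), and with the hair shaft term the adjusted p was 0.66. The value was 1.26 without WT replicates 1 and 3 (adjusted p = 0.28) and 1.16 without Zfp36ΔARE replicate 5 (adjusted p = 0.16).

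The stress keratins varied more between mice than between genotypes. Krt6a had 12580, 44898, 7048, 37397 and 18645 normalized counts in WT replicates 1 to 5 and 24467, 14504, 13164, 52744 and 18702 in Zfp36ΔARE replicates 1 to 5. WT libraries alone spanned 6.37-fold. The log2 fold change was 0.04 with an interval from -1.15 to 1.22 (adjusted p = 0.97), so these libraries do not exclude a change within those limits in either direction.

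Krt6b, the near copy of Krt6a, had 2001, 6219, 938, 11644 and 8508 in WT and 1571, 2413, 977, 26815 and 8723 in Zfp36ΔARE libraries. It had the widest range of the abundant members, 12.4-fold within WT and 27.4-fold within Zfp36ΔARE skin. Its log2 fold change was 0.47 (95% interval -1.68 to 2.61, adjusted p = 0.72), and without Zfp36ΔARE replicate 4 it was -0.77 (adjusted p = 0.49).

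Krt16, a type I partner of Krt6 proteins, had 6365, 18051, 4609, 25265 and 16314 in WT libraries. It had 5429, 7225, 4328, 52608 and 16590 in Zfp36ΔARE libraries. Replicate 4 held 8.31 times the median of the other 4 Zfp36ΔARE libraries and was above every WT library. The log2 fold change was 0.29 (95% interval -1.37 to 1.95, adjusted p = 0.78), and without that library it was -0.75 (adjusted p = 0.31), the opposite direction.

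Krt17, made by the companion layer and outer root sheath of follicles as well as by stressed epidermis, was the most abundant and the least variable of the stress keratins. Its values were 44973, 87513, 36502, 72893 and 54410 in WT and 85909, 53425, 62071, 89173 and 41842 in Zfp36ΔARE skin. The lowest and the highest values were in different groups, and the log2 fold change was 0.17 (95% interval -0.44 to 0.77, adjusted p = 0.65). Krt75, a type II keratin of the companion layer, had 12291 ± 7529 and 30345 ± 7213 normalized counts (SD, n = 5 each, log2 fold change 1.30, adjusted p = 0.067).

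**Figure D2:**
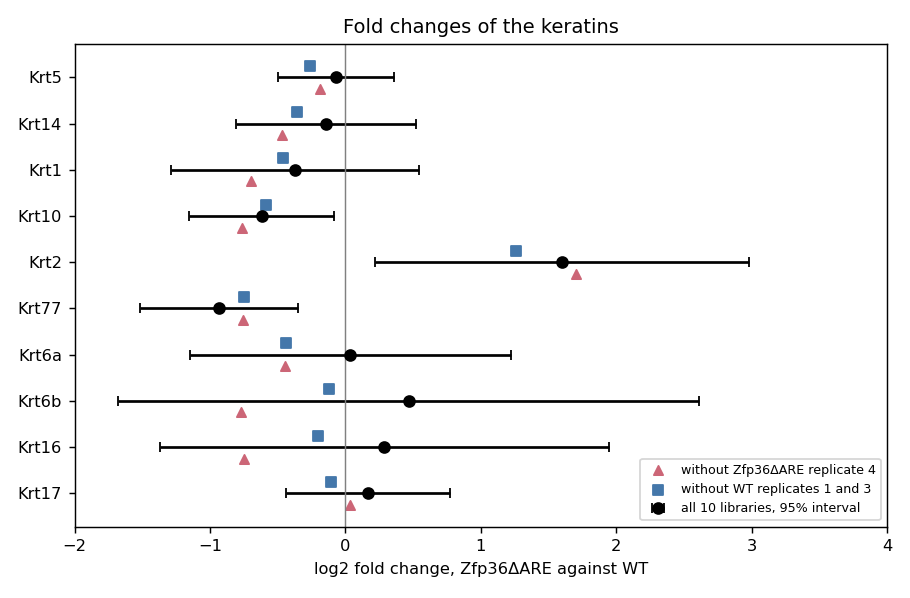
Log2 fold change of each keratin, Zfp36ΔARE against WT, with the 95% interval from all 10 libraries (black), without Zfp36ΔARE replicate 4 (red triangles) and without WT replicates 1 and 3 (blue squares). The intervals, not adjusted for the number of genes, lie below 0 for Krt77 and Krt10 and above 0 for Krt2. Those of Krt5, Krt14, Krt1 and the 4 stress keratins span 0. The points of Krt6a, Krt6b and Krt16 move to the negative side in both smaller sets.

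Zfp36ΔARE replicate 4 held the highest value of 6 of the 10 members. Against the median of the other 4 Zfp36ΔARE libraries it was 13.5 times higher in Krt6b, 8.31 times in Krt16, 3.44 times in Krt1, 3.18 times in Krt6a and 2.24 times in Krt14. Krt77 moved the other way in the same library, at 0.410 of that median and the lowest of all 10. The alarmin genes S100a8 and S100a9, which keratinocytes and neutrophils make in inflamed skin, had 6290 and 12004 normalized counts there, against at most 1947 and 2836 in WT libraries. Unlike the folds above, that comparison is with WT alone and does not set this library against the other Zfp36ΔARE libraries. WT replicates 3 and 1 had the lowest Krt6a and the lowest hair shaft level of all libraries. WT replicate 3 held the lowest value in 4 members and the highest in 2. Krt16 was lowest in Zfp36ΔARE replicate 3 (4328), the library with the highest hair shaft level (17781 CPM).

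The list of 17 measured keratinocyte activation genes, among them S100a8 and S100a9, which were singled out after their values were seen, had 16 tested members. By edgeR 0 of them passed an adjusted p below 0.05, against 34.3% of all tested genes, and 2 rose at an unadjusted p below 0.05. Past an adjusted p below 0.05, 2 rose with DESeq2 and 1 with limma-voom. The median log2 fold change was 0.53, with summed levels of 819 to 2414 CPM in WT and 1807 to 4076 CPM in Zfp36ΔARE libraries. Its most abundant genes were Sprr1a, a cornified envelope precursor (log2 fold change 0.75, adjusted p = 0.060), Klk6, a kallikrein protease (-0.33, adjusted p = 0.66), and Tgfa, an EGFR ligand (0.71, adjusted p = 0.054). In the plot of list scores the stress keratins and these genes were both highest in Zfp36ΔARE replicate 4 and lowest in WT replicate 3.

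**Figure D3:**
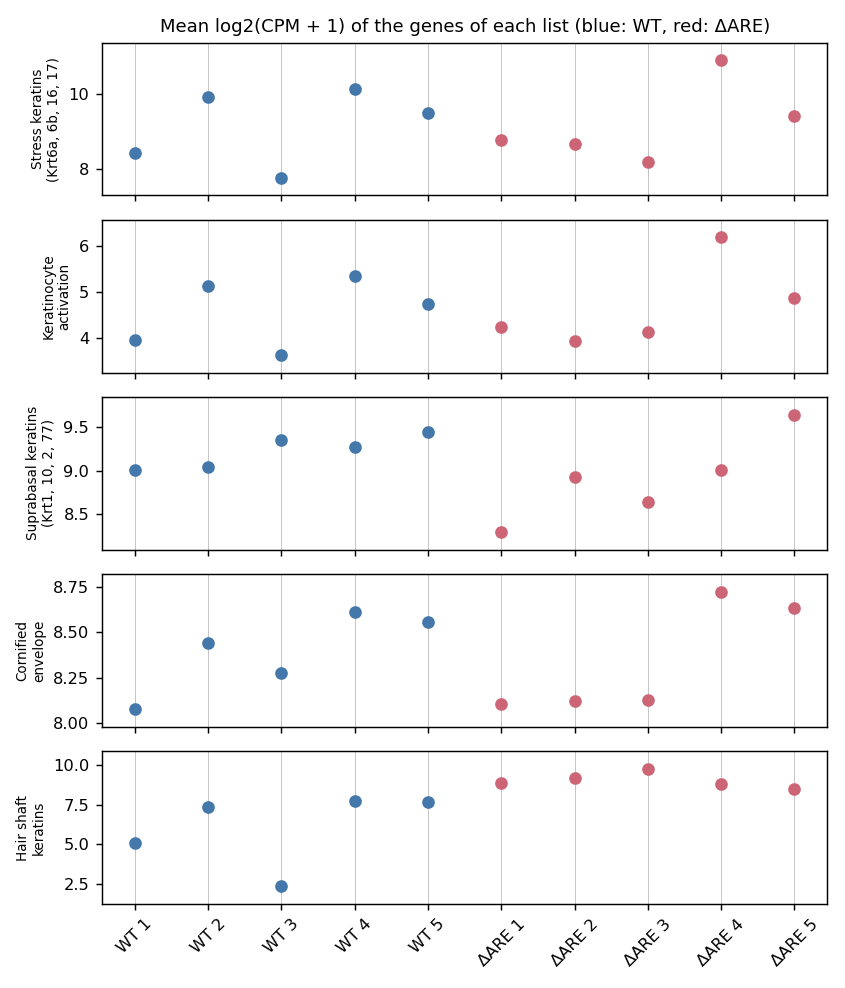
Mean log2(CPM + 1) of the genes of 5 lists in each library, from the stress keratins at the top to the hair shaft keratins at the bottom, with WT in blue and Zfp36ΔARE in red. Zfp36ΔARE replicate 4 is highest for stress keratins and for activation genes, and WT replicates 3 and 1 are lowest for hair shaft keratins.

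Levels of different genes were compared per length, as CPM per kb (counts scaled to library depth with TMM factors and divided by gene length in kb). In WT skin Krt10 was highest at 3353 ± 514, followed by Krt14 (2123 ± 577), Krt5 (1933 ± 451), Krt1 (1798 ± 357), Krt17 (1430 ± 502), Krt77 (1145 ± 269), Krt6a (400 ± 271), Krt16 (338 ± 205), Krt6b (98.2 ± 74.8) and Krt2 (0.525 ± 0.417, SD, n = 5). The ranges of neighbours in this order overlapped except between Krt77 and Krt6a and between Krt6b and Krt2. In Zfp36ΔARE skin Krt10 (2184 ± 843), Krt14 (1920 ± 918) and Krt5 (1844 ± 419) were still the first 3, but Krt10 exceeded Krt14 in 3 of 5 libraries where it had done so in 5 of 5 WT libraries. Krt17 (1605 ± 496) stood before Krt1 (1388 ± 945) there, and all neighbours but Krt6b and Krt2 overlapped.

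The 4 type I members together were 1.35 ± 0.0553 times the 6 type II members per length in WT and 1.39 ± 0.0980 times in Zfp36ΔARE skin (SD, n = 5 each), and the 2 groups overlapped. As shares of the summed level of all 10, suprabasal keratins took 50.7% ± 9.13 in WT and 39.8% ± 9.07 in Zfp36ΔARE skin, basal keratins 31.9% ± 3.73 and 36.1% ± 4.62, and stress keratins 17.5% ± 5.50 and 24.1% ± 5.02. The ranges of each share overlapped between the groups. The 10 members held between 1.34% and 3.09% of all counts in a library, and whether fewer cells or less RNA per cell lie behind a lower value cannot be told apart in bulk tissue.

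**Figure D4:**
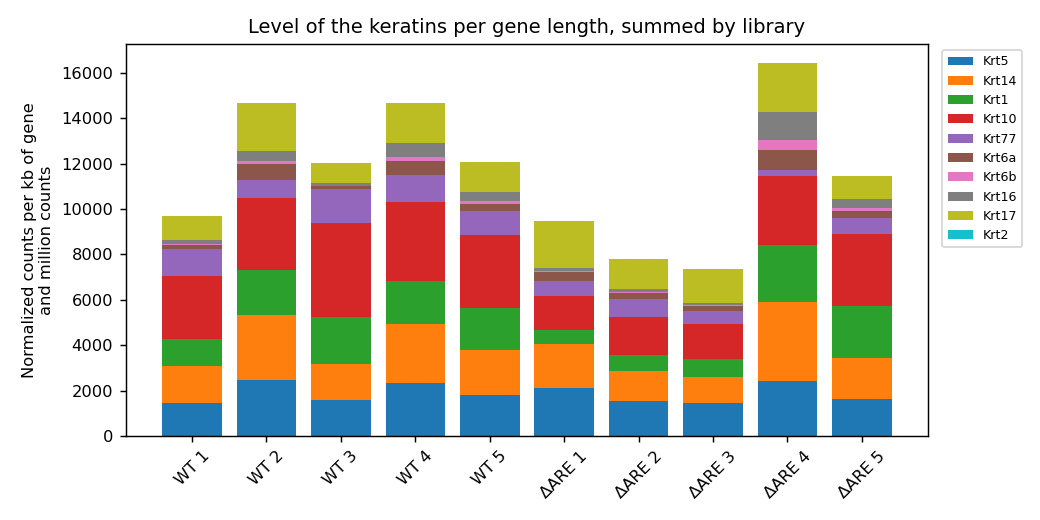
Level of each keratin as CPM per kb of gene length, stacked for each of the 10 libraries, with Zfp36ΔARE shortened to ΔARE. The purple segment of Krt77 is smallest in Zfp36ΔARE replicate 4, where the segments of Krt16 and Krt6b are largest.

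Ratios of 2 keratins within a library do not depend on scaling between libraries, and 6 such ratios were tested between the genotypes (exact permutation, two-sided), of which none reached an adjusted p below 0.05 (smallest unadjusted p = 0.18, all adjusted p = 0.87 over the 6). The smallest p that 5 against 5 allow is 0.0079. The ratio of Krt14 to Krt5 stayed between 0.786 and 0.914 in the 5 WT libraries. In Zfp36ΔARE libraries it was 0.715, 0.662, 0.605, 1.11 and 0.850 in replicates 1 to 5, so 3 lay below all WT libraries and 1 above. The difference in mean log2 ratio was -0.15 (exact permutation p = 0.37), and without replicate 4 it was -0.29 (exact permutation p = 0.032, unadjusted). The log2 ratio of Krt10 to Krt1 was 0.999, 0.44, 0.77, 0.65 and 0.57 in WT and 0.99, 1.05, 0.79, 0.027 and 0.24 in Zfp36ΔARE skin, lowest in the 2 libraries with the most Krt1 (difference -0.07, exact permutation p = 0.79).

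For the stress pair, Krt16 to Krt6a ranged from 0.402 to 0.875 in WT and from 0.222 to 0.997 in Zfp36ΔARE libraries (log2 difference -0.26, exact permutation p = 0.59). Krt6b to Krt6a ranged from 0.133 to 0.456 and from 0.0642 to 0.508 (-0.23, exact permutation p = 0.71). In both ratios Zfp36ΔARE replicate 4 was the highest library and replicate 1 the lowest. Krt16 to the basal keratin Krt14 ranged from 0.0636 to 0.213 and from 0.0612 to 0.332 (0.11, exact permutation p = 0.87). Krt10 to Krt14, a suprabasal against a basal type I keratin, was 2.05, 1.34, 3.19, 1.64 and 2.01 in WT and 0.927, 1.56, 1.69, 1.06 and 2.19 in Zfp36ΔARE replicates 1 to 5. Replicates 1 and 4 were below all WT libraries, and the difference was -0.47 (exact permutation p = 0.18).

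**Figure D5:**
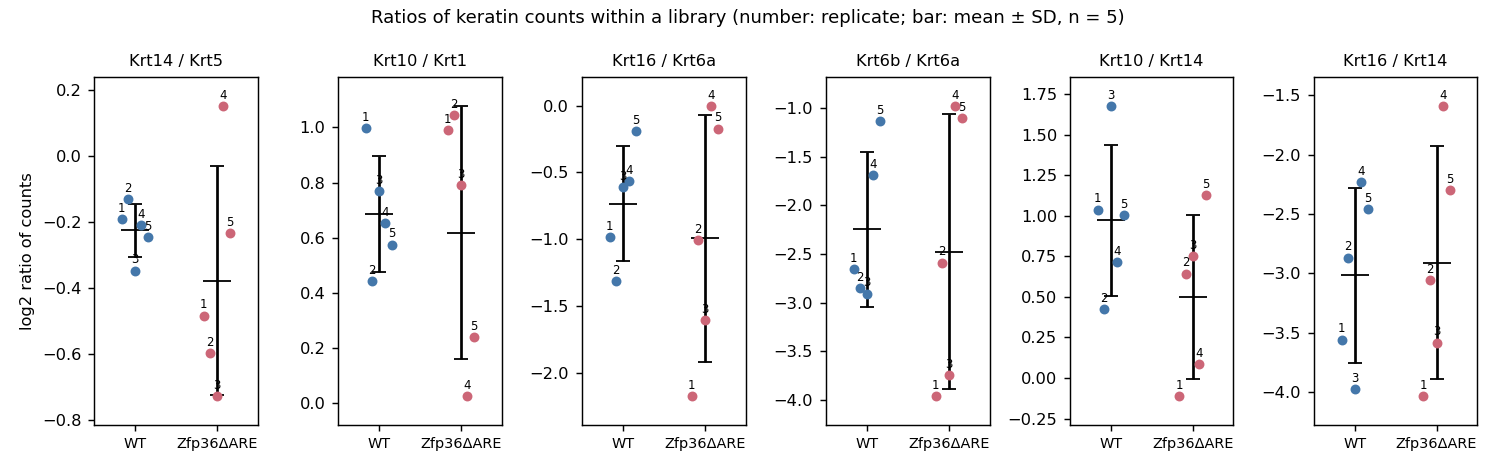
Log2 ratio of 2 keratin counts within each library for 6 pairs, with WT in blue, Zfp36ΔARE in red, the replicate number beside each point and the mean ± SD (n = 5) as a bar. The groups overlap in every pair, and Krt14 to Krt5 lies in a narrow band in WT and a wide one in Zfp36ΔARE skin.

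Other genes of epidermal keratinocytes gave a context for these values. Of all tested genes 34.3% passed an adjusted p below 0.05 by edgeR, and the counts of each list below are to be read against that share. Of 17 other epithelial keratins, 14 were tested, 3 rose and 3 fell at an adjusted p below 0.05 (median log2 fold change 0.18). Krt79, a keratin of the follicle opening and sebaceous duct, fell from 52235 ± 5965 to 28071 ± 10077 normalized counts (SD, n = 5 each, log2 fold change -0.90, adjusted p = 0.015) with no overlap between the groups. The simple-epithelium keratins Krt8 and Krt18, named after their values were seen as the 2 called members, rose by 1.54 and 1.57 on the log2 scale from 56.4 and 103 to 165 and 308 normalized counts (adjusted p = 0.012 and 0.044). The other 3 past the threshold were Krt23, which rose by 0.52, and Krt78 and Krt4, which fell by 0.54 and 0.99.

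Genes of the cornified envelope, the protein shell that forms as keratinocytes end their differentiation, moved in both directions. Of 16 tested, 3 rose and 3 fell at an adjusted p below 0.05 (median log2 fold change -0.37). That is near the share of 34.3% over all tested genes and does not set the list apart. Dmkn, which encodes the secreted protein dermokine, had 68694 ± 5672 and 51363 ± 13247 normalized counts (adjusted p = 0.070), with 38676 to 46537 in Zfp36ΔARE replicates 1 to 3 and 64427 and 66570 in replicates 4 and 5, the same libraries that Krt1 and Krt10 divided. Sbsn, encoding suprabasin, fell from 34682 ± 1598 to 26429 ± 4510 (log2 fold change -0.39, adjusted p = 0.028). Calm4, a calcium-binding protein of differentiating keratinocytes, was at 41818 ± 5699 and 36636 ± 21461 (adjusted p = 0.68). Tgm3, a transglutaminase of envelope and hair, was the 1 called gene, with 1721 ± 960 and 6480 ± 2699 (log2 fold change 1.91, adjusted p = 0.012). Also higher were Ivl (involucrin, 0.58) and Tgm1 (transglutaminase 1, 0.51). Also lower were Flg2, which encodes filaggrin-2, with 12757 ± 2652 and 7525 ± 1853 and no overlap (-0.76, adjusted p = 0.015), and Lce1c, a late envelope gene (-0.46, adjusted p = 0.036).

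Among 17 desmosome and hemidesmosome genes, which anchor keratin filaments, 3 rose and 3 fell (median log2 fold change 0.05), also near the 34.3% of all tested genes. The abundant ones were Dsp (desmoplakin, log2 fold change 0.29, adjusted p = 0.15), Pkp1 (plakophilin 1, 0.18, adjusted p = 0.31) and Jup (plakoglobin, 0.13, adjusted p = 0.47), none past the threshold. Those that rose were Ppl and Evpl, which encode plakin linkers (0.40 and 0.52), and Dsc2, a desmosomal cadherin and the 1 called gene (1.90), and those that fell were the hemidesmosome genes Dst, Itga6 and Itgb4 (-0.40, -0.29 and -0.35). Of 14 regulators of epidermal differentiation, 6 rose and 1 fell (median 0.38). Grhl1, a transcription factor of desmosomal genes, rose by 0.53 (adjusted p = 0.016) and Notch1, a receptor for the exit from the basal layer, by 0.51 (adjusted p = 0.035), while Trp63, the p63 factor of basal cells, was at -0.01 (adjusted p = 0.96). The 1 that fell was Cebpa (-0.34). Of the 12 proliferation genes, 1 rose at an adjusted p below 0.05 by edgeR, Ccna2 (0.40, adjusted p = 0.046), and 0 fell. DESeq2 and limma-voom each had 1 higher and 0 lower. At an unadjusted p below 0.05 by edgeR, 4 rose and 0 fell. All 12 log2 fold changes were positive, from 0.10 to 0.40 (median 0.30). Mki67 was at 0.36 (adjusted p = 0.10), Top2a at 0.32 (adjusted p = 0.096) and Pcna at 0.10 (adjusted p = 0.50).

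The non-keratin genes whose levels varied most like a keratin were found by Pearson's r of log2 CPM over the 10 libraries. Each group's mean was subtracted first. The 13593 candidates had a mean of at least 50 normalized counts. Genes with a symbol starting with Krt were left out, so other keratins could not appear among the closest. The correlation is a description over libraries that also share depth and tissue make-up. Closest to Krt14 were Klk7 (r = 0.98), a protease of the stratum corneum, Slc26a9 (0.97) and Bok (0.97). Closest to Krt10 were Aadacl2 (0.99), Dmkn (0.98) and Gm9696 (0.97). Closest to Krt16 were Hars (0.99), a tRNA synthetase, Klf4 (0.98), a transcription factor of the epidermal barrier, and Sprr2e (0.98).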

How the data were processed

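Skin RNA of 5 WT and 5 Zfp36ΔARE mice was sequenced by the authors, who removed reads with a low mean score, aligned the rest to mm10 with STAR 2.5.2b, counted fragments per gene with featureCounts of Subread 1.5.0-p1 and deposited the raw counts with gene lengths in bases. Strand and multi-mapping settings are not given in the sources used here. Rows without a gene name (2, holding 7.38e-05% of counts) were left out. In R 4.3.3, edgeR 4.0.16 applied filterByExpr and TMM scaling, fitted the robust quasi-likelihood model with genotype as the only term over all 15543 genes and adjusted p by Benjamini-Hochberg. Calls followed the study in requiring an adjusted p below 0.05 and more than 2-fold change. Standard errors are the fold change divided by the square root of F, and intervals use the fit's degrees of freedom. Levels per kb are TMM-scaled CPM divided by the deposited gene lengths. Ratios used exact permutation tests. Transcripts and coordinates came from GENCODE M21 on GRCm38.

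Named genes were all members, up to 3 genes with the most counts of each list, and list genes called against their list's direction. Further list genes were named because they passed an adjusted p below 0.05, and S100a8 and S100a9 after their values were seen. The naming of these further genes depended on the results. The members and lists were chosen with earlier results of these data known. Alternatives were DESeq2 1.42.0, limma-voom (limma 3.58.1), 3 other scalings, 2 other filters, non-robust dispersions, glmTreat, a replicate block, a hair shaft term and omitted libraries. Depth limits precision through counting error for Krt2 alone. The samples are separate animals. Same-numbered libraries were not paired by any label.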

Additional observations from a re-analysis of the deposited data

Results flagged for a closer look

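In 34 groups of 5 libraries examined, 17 measures in each genotype, 4 had a library far from the rest by Dixon's criterion. That criterion is a gap over 0.710 of the group's range, and chance gives about 1.7 only if values are normally distributed. Counts of members entered without logs, a scale on which high values lie further out. The number found is therefore a description and was not tested against chance. Krt6a in Zfp36ΔARE replicate 4 was at 52744 normalized counts against 13164 to 24467 in the other Zfp36ΔARE libraries (gap 0.714 of the range), and Krt16 in the same library was at 52608 against 4328 to 16590 (0.746). Krt1 in WT replicate 1 was at 76967 against 120632 to 135788 in the other WT libraries (0.742). Krt2 in WT replicate 5 was at 87.7 against 15.9 to 30.1 (0.802).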

How the results depend on the processing

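The number of members past an adjusted p of 0.05, 1 with all libraries (Krt77), was 3 with DESeq2, 2 with scaling by epithelial genes, and 0 with the replicate block, with the hair shaft score as a term, without WT replicates 1 and 3 together, and in libraries without Y-linked counts only. It was between 0 and 2 with each library left out. The number called, 0, was 1 with DESeq2, limma-voom and scaling by epithelial genes, and between 0 and 1 with each library left out. With glmTreat it was 0, where no gene of all tested passed (smallest adjusted p 0.0708), so that count says nothing about the members. Krt77 itself had a log2 fold change of -0.98 (adjusted p = 0.061) with the replicate block and -0.76 (adjusted p = 0.33) in libraries without Y-linked counts. The hair shaft term left 8 genes called among all tested, against 1292 without it, and 526 were called without WT replicates 1 and 3. The hair shaft score ran from 2.38 to 7.74 in WT and from 8.50 to 9.74 in Zfp36ΔARE libraries, without overlap. A fit with that term cannot tell hair content from genotype, so missing calls there say nothing about the keratins. In libraries without Y-linked counts 0 of 16373 genes were called and Zfp36 had an adjusted p of 0.28, so the missing calls there say nothing about the keratins.

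Several members without a call changed direction, and the cause was not tested. In libraries without Y-linked counts, which hold 1 Zfp36ΔARE mouse assumed to vary like WT, log2 fold changes were 0.14 for Krt5, -0.85 for Krt2, -1.90 for Krt6b and -1.38 for Krt16. With the hair shaft term they were -0.84 for Krt6a, -0.57 for Krt6b, -0.46 for Krt16 and -0.32 for Krt17, and without WT replicates 1 and 3 they were -0.44, -0.12, -0.20 and -0.11. Scaling by epithelial genes, which moved the median of all genes to -0.13, gave -0.029 for Krt6a. Limma-voom gave -0.0055 for Krt6b and -0.021 for Krt16, and the replicate block -0.083 and -0.11. With each library left out the ranges were -0.19 to 0.035 for Krt5, -0.44 to 0.39 for Krt6a, -0.77 to 0.87 for Krt6b and -0.75 to 0.60 for Krt16.

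Among log2 ratios, Krt10 to Krt1 was 0.062 and Krt16 to Krt14 -0.39 without WT replicates 1 and 3. With each library left out the differences ranged from -0.29 to -0.066 for Krt14 to Krt5 (exact permutation p = 0.032 to 0.68), -0.18 to 0.079 for Krt10 to Krt1, -0.51 to 0.037 for Krt16 to Krt6a, -0.60 to 0.14 for Krt6b to Krt6a and -0.22 to 0.39 for Krt16 to Krt14. No label paired same-numbered libraries, and the correlation of their deviations over all genes ran from -0.18 to 0.09. That correlation cannot decide whether single genes share a factor by replicate number. With the replicate block the standard error was 0.33 against 0.96 without it for Krt6b, and 0.31 against 0.74 for Krt16. What lies behind this was not tested.

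Krt14, Krt1 and Krt10 kept their direction under every alternative run, and so did Krt77 and Zfp36. For Krt14 the log2 fold change came as close to 0 as -0.0074 without Zfp36ΔARE replicate 3, so its kept sign says little. Of the 359 alternative values, 286 were the same as the main result. For fold changes and ratios this means the same direction and side of the threshold. For the counts of members it means an unchanged count, which held in 16 of 23 alternatives for members called and 10 of 22 for members past the adjusted p.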
